A study of Mus musculus with 18 samples.

Results

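The cytochrome P450 genes were examined in lung and lung tumors of B6C3F1/N mice. Members were all genes whose symbol is Cyp followed by a number, a letter and a number, read from probe sets that carry 1 gene symbol. Of 18193 genes measured in this way, 70 were P450 genes, in 15 families and 34 subfamilies: 3 in CYP1, 35 in CYP2, 5 in CYP3, 11 in CYP4 and 16 in the other 11 families. The study placed 18 samples on Affymetrix 3′ expression arrays, 6 of lung from vehicle control mice, 6 of spontaneous lung tumors and 6 of lung tumors from mice that had inhaled antimony trioxide, a metal oxide aerosol (called treated tumors here). Mice entered at 5 to 6 weeks of age, in groups of 60 males and 60 females at 0, 3, 10 or 30 mg/m3, and were exposed for 6 hours plus 12 minutes a day on 5 days a week for up to 105 weeks. The labels give neither the sex nor the exposure concentration behind an array, and do not say which exposure group the mice with spontaneous tumors came from. Selected tumors were cut from the surrounding lung and frozen, and the vehicle control label names lung. The labels do not say whether samples of a group came from different animals, and a p-value here reflects how much the arrays of a group vary, which may be technical.

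P450 enzymes are heme proteins of the endoplasmic reticulum and, for a few members, of mitochondria. They insert oxygen into lipophilic substrates, and families CYP1 to CYP3 largely handle foreign compounds while most other families act on fatty acids, sterols, bile acids, steroids, retinoids or vitamin D. In the mouse lung, non-ciliated club cells of the small airways are the classical site of P450 activity, and enzymes there turn inhaled compounds such as naphthalene into reactive products.

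Values are log2 expression after RMA, the normalization the submitters name, so a difference of 1 is a doubling. For a gene with several probe sets the one with the highest mean was read, and signals of different probes are not set against each other. Control array 5 and spontaneous tumor arrays 5 and 6 stood apart: their median correlation with the other arrays was 0.301 to 0.476, against 0.920 to 0.973 for the other 15. They were left out, which leaves 5 control, 4 spontaneous tumor and 6 treated tumor arrays, and the number of arrays limits the precision. On these 15 arrays the bioB hybridization control read 10.65 to 11.24 in control lung, 10.19 to 10.49 in spontaneous tumors and 10.24 to 10.62 in treated tumors. That control is spiked in equal amount, it was higher on control arrays, and its part in the results was not tested. The mean of 4 Y-linked genes was between 8.60 and 9.49 on all 15 arrays, so no array lacked that signal.

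More P450 genes fell than rose in both kinds of tumor, while more genes of the whole array rose than fell. Against control lung, 3 P450 genes were higher and 14 lower in spontaneous tumors (limma, Benjamini-Hochberg adjusted p under 0.05 over all genes). The background in this comparison was 20.1% of all genes higher and 12.9% lower, and the shares of the 70 P450 genes were 4.29% and 20%. In treated tumors 7 P450 genes were higher and 16 lower, which is 10% and 22.9% of them, with 23.8% of all genes higher and 15% lower. The 14 genes that fell in spontaneous tumors all fell in treated tumors too, and Cyp2b19 and Cyp2f2 passed the test there in addition; both comparisons use the same control arrays. No gene rose in both by this fit, none was called in opposite directions, and 44 were called in neither. The median log2 difference over the P450 genes was 0.03 in spontaneous and 0.02 in treated tumors, beside 0.12 and 0.09 over all genes. Other fits did call a member higher in both groups: Cyp2c68 in 6 of them (all 18 arrays with array weights, the fits of the 2 groups compared alone, and without spontaneous tumor 1 or 3 or treated tumor 3 or 4), Cyp2c70 with a replicate block and without treated tumor 5, Cyp2c23 with array weights and in the 2-group fits, Cyp4v3 with array weights and Cyp4f16 when its probe sets were averaged. Treated tumor 5 alone carries number 5 among the 15 arrays, so the replicate block takes it out of the comparison too. With the 3 arrays that stood apart put back, the calls were 1 higher and 6 lower in spontaneous tumors and 1 higher and 10 lower in treated tumors. The higher counts moved with single arrays: in spontaneous tumors to 1 without control 1 or 4, and in treated tumors to 3 without control 4 and to 4 without control 1 or 2, treated tumor 1 or 6, or spontaneous tumor 4.

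**Figure D1:**
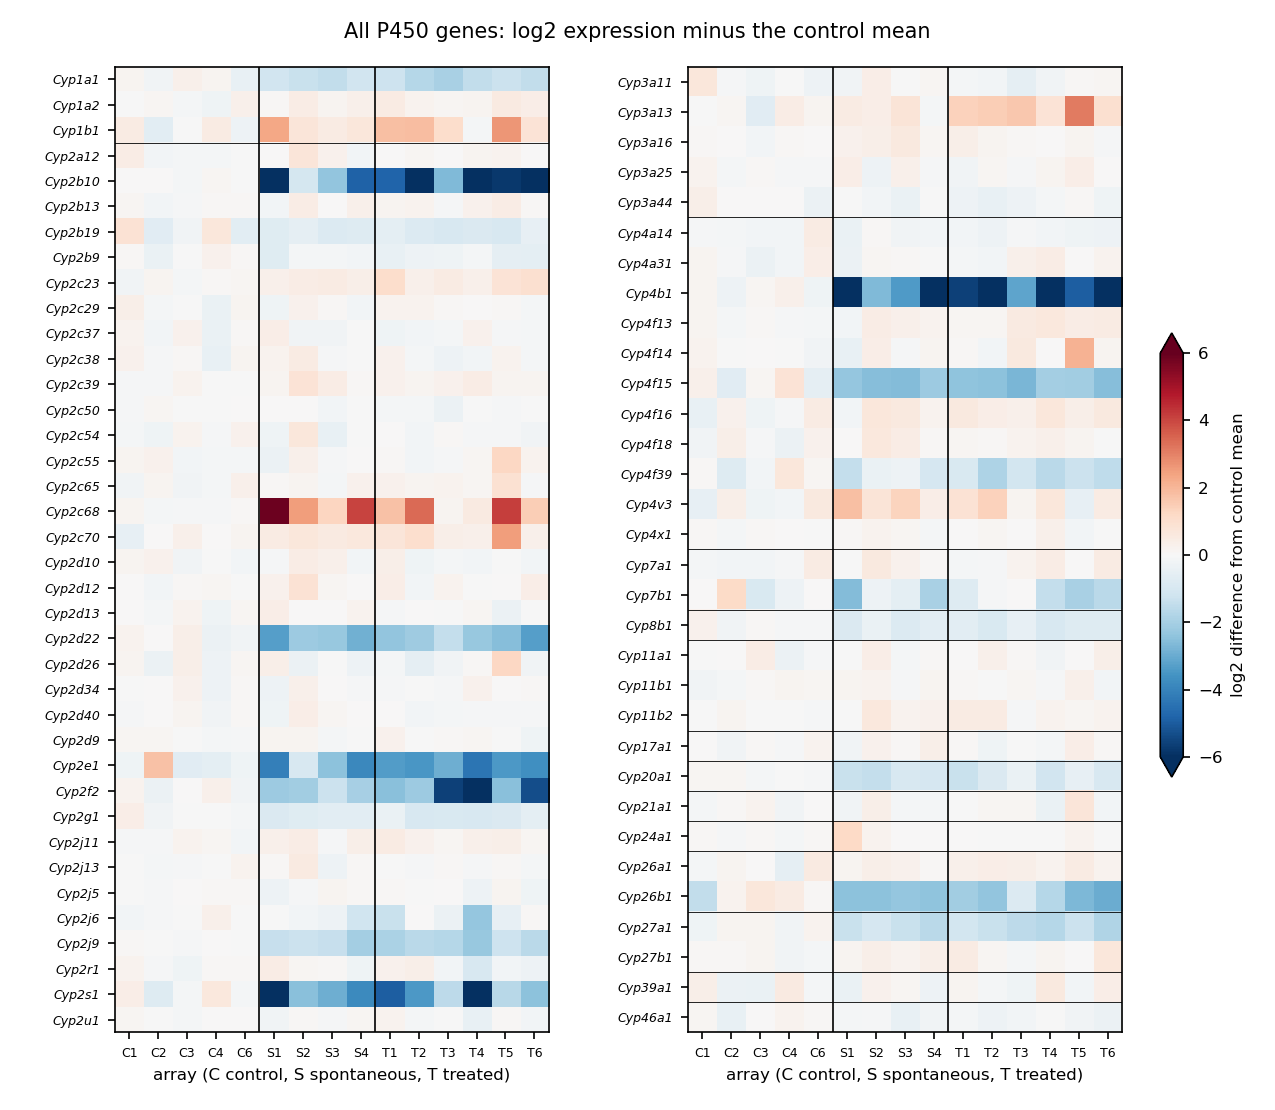
Log2 expression of all 70 P450 genes on 15 arrays, minus the gene's mean over the 5 control arrays. Rows are genes in family order with thin lines between families, columns are arrays, blue is below and red above the control mean, and the colour scale ends at 6 log2 units either way. Most rows are pale in all arrays, a minority such as Cyp4b1, Cyp2b10, Cyp2e1 and Cyp2s1 are blue in every tumor, and Cyp2c68 is the row with the deepest red.

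The counts differed with the signal of the probe set. The mean over the 15 arrays was at or above 7.64, the median of all genes, for 11 P450 genes, and of these 5 fell and 1 rose in spontaneous tumors and 6 fell and 2 rose in treated tumors. Over all genes at or above that level 12.7% fell and 28.7% rose in spontaneous tumors, and 14.6% fell and 34.2% rose in treated tumors. The median log2 difference of these 11 members was -1.19 in spontaneous and -0.88 in treated tumors, beside 0.175 and 0.189 over all genes at that level. The mean behind this split includes the control arrays, so a gene high in control lung alone can reach 7.64. The split is therefore not independent of the falls. Cyp4b1 had group means of 12.33 in control lung, 7.49 in spontaneous and 6.64 in treated tumors, and Cyp27a1 8.77, 7.44 and 7.30. Among the 59 members below 7.64, 9 fell and 2 rose in spontaneous tumors, or 15.3% and 3.39%, beside 13.2% and 11.6% of all such genes. In treated tumors 10 fell and 5 rose, or 16.9% and 8.47%, beside 15.5% and 13.4%. The share of falls among the members with low signal was thus near the background, and their median differences were 0.07 and 0.03. Arrays of control and spontaneous tumors did not overlap for 14 genes on the low side and 5 on the high side, with 11.4% and 17.8% of all genes in the same position. For treated tumors these counts were 14 and 4, with 10.1% and 14.4% of all genes.

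Cyp4b1 gave the largest fall in both tumor groups, followed by Cyp2s1, Cyp2b10 and Cyp2e1 in spontaneous and by Cyp2b10, Cyp2f2 and Cyp2e1 in treated tumors. Cyp4b1, which activates the lung toxin ipomeanol and also hydroxylates fatty acids, read 12.50, 12.05, 12.43, 12.61 and 12.06 in control lung 1, 2, 3, 4 and 6. It read 5.06, 9.66, 8.94 and 6.29 in spontaneous tumors 1 to 4, and from 4.64 to 9.18 with a median of 6.42 in treated tumors. Every tumor was below every control, and tumors of each group were spread over several log2 units while the controls lay close together. Cyp4b1 fell by 4.84 ± 0.89 (log2, SE; 28.7-fold, limma adjusted p = 0.000771) in spontaneous and fell by 5.69 ± 0.81 (51.5-fold, adjusted p = 6.09e-05) in treated tumors. Cyp2b10, a phenobarbital-inducible enzyme of liver that lung also makes, read 11.71, 11.71, 11.57, 11.81 and 11.67 in control lung. In spontaneous tumors it read 5.33, 10.64, 9.35 and 6.82, and in treated tumors from 5.08 to 9.05 with a median of 5.67. Spontaneous tumor 2 kept the level nearest to control for both genes, and spontaneous tumor 1 was lowest for both. Cyp2b10 fell by 3.66 ± 0.93 (12.6-fold, limma adjusted p = 0.00719) and fell by 5.42 ± 0.84 (42.8-fold, adjusted p = 0.000128), and all 3 of its probe sets were called lower in each comparison. The call in spontaneous tumors was lost with the mean of the Y-linked genes as a covariate (-2.73 ± 0.96, limma adjusted p = 0.0527) and with the difference between the 3′ and 5′ actin control probe sets, a measure of RNA integrity, as a covariate (-2.56 ± 0.96, adjusted p = 0.0642).

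Cyp2f2, the club cell enzyme that activates naphthalene, read 13.56, 12.98, 13.38, 13.64 and 13.12 in control lung and 11.15, 11.26, 12.06 and 11.33 in spontaneous tumors. In treated tumors it ran from 7.23 to 11.16 with a median of 9.40. Treated tumors 3, 4 and 6 lay at 8.0 or below and the other 3 at 10.80 or above. Both tumor groups were below all controls. Cyp2f2 fell by 4.04 ± 0.65 in treated tumors (16.5-fold, limma adjusted p = 0.000189), and the difference of -1.88 ± 0.72 in spontaneous tumors did not pass (adjusted p = 0.0577). A fit of the spontaneous and control arrays alone gave an adjusted p of 0.000128 for the same difference, since the spread among treated tumors then does not enter. Leaving out treated tumor 1, 2, 3, 4 or 5 also put this call past the threshold, at the same difference. Cyp2s1, an epithelial P450 found mostly outside the liver, read 12.29, 11.11, 11.76, 12.54 and 11.78 in control lung, 5.32, 9.38, 8.97 and 8.06 in spontaneous tumors, and 5.61 to 10.32 (median 8.94) in treated tumors. It fell by 3.97 ± 0.94 (limma adjusted p = 0.00455) and fell by 3.40 ± 0.84 (adjusted p = 0.00493), with no overlap with control. With the Y-linked mean as a covariate the fall in treated tumors was -2.91 ± 1.11 and did not pass (limma adjusted p = 0.0728).

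Cyp2e1, which oxidizes ethanol and small solvents, read 7.37, 9.37, 6.95, 7.01 and 7.38 in control lung, 3.54, 6.65, 5.17 and 3.73 in spontaneous tumors and 3.22 to 4.69 (median 4.15) in treated tumors. Control 2 was the high array, and every tumor was below every control. The falls were -2.84 ± 0.59 (limma adjusted p = 0.00185) and -3.55 ± 0.53 (adjusted p = 9.93e-05). Cyp2d22, a mouse member of the drug-metabolizing CYP2D group, read 8.58, 8.40, 8.74, 8.06 and 8.18 in control lung, 5.10, 6.19, 6.11 and 5.51 in spontaneous tumors and 5.10 to 6.95 (median 6.06) in treated tumors. It fell by 2.66 ± 0.30 (adjusted p = 1.27e-05) and fell by 2.34 ± 0.27 (adjusted p = 1.07e-05) in the limma fit. The other 7 CYP2D genes were not called in either comparison. Cyp2j9, of a group that epoxidizes arachidonic acid, read 7.69, 7.61, 7.54, 7.66 and 7.59 in control lung, 6.24, 6.34, 6.24 and 5.60 in spontaneous tumors and 5.35 to 6.37 (median 5.94) in treated tumors. Its fall was smaller than those above, at -1.51 ± 0.18 (limma adjusted p = 2.14e-05) and -1.73 ± 0.17 (adjusted p = 1.45e-06), with tight groups that did not overlap. None of the other 4 CYP2J genes was called.

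**Figure D2:**
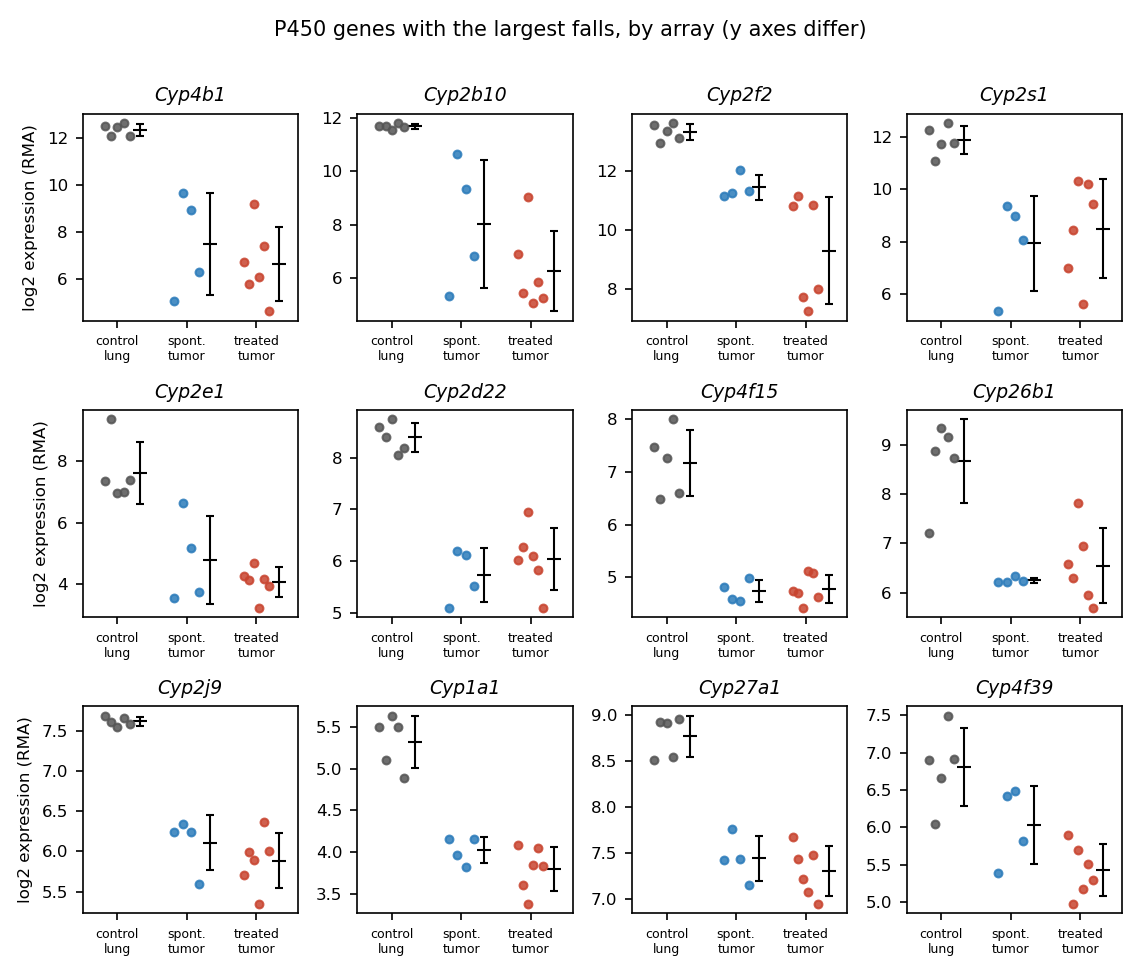
Log2 expression on each array of the 12 P450 genes with the largest falls, in control lung (5 arrays, grey), spontaneous tumors (4, blue) and treated tumors (6, red). Black marks are the group mean ± SD and y axes differ between panels. Tumors lie below all controls for every gene and tumor group except Cyp26b1 in treated and Cyp4f39 in spontaneous tumors, and Cyp4b1, Cyp2b10 and Cyp2s1 are spread widely in both tumor groups and Cyp2f2 in treated tumors.

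Promoters of 4 of the 5 genes with the largest falls are printed as examples. That of Cyp2b10, also among these 5, is not printed, and likeness between promoters was not measured. Each line gives the 150 bases before the RefSeq transcription start (GRCm38.p6), 5′ to 3′ on the gene's strand. Capitals mark a TATA box (TATAAA) or a GC box (GGGCGG, read as CCGCCC on the opposite strand).
Cyp4b1, chr4:115647722-115647871, minus strand: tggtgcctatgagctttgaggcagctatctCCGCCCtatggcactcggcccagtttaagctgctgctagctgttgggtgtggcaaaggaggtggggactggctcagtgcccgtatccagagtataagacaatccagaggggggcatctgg
Cyp2s1, chr7:25816526-25816675, minus strand: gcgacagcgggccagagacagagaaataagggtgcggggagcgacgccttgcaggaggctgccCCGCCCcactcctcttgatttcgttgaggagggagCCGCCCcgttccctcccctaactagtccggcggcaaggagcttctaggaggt
Cyp2f2, chr7:27119805-27119954, plus strand: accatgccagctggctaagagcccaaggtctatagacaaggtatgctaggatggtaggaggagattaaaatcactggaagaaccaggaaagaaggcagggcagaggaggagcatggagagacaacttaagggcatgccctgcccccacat
Cyp2e1, chr7:140763669-140763818, plus strand: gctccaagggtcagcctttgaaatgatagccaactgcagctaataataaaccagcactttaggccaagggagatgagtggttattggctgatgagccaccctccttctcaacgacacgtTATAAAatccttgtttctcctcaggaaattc

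Both motifs and the aryl hydrocarbon receptor core GCGTG were searched on both strands in the 250 bases before the start, and none of the 3 is contained in another. The Cyp2e1 TATA box begins at position -31 from the start, the Cyp4b1 GC box at -120 and the Cyp2s1 GC boxes at -87 and -52, while the Cyp2f2 window held none of the 3. Of 58 RefSeq promoters of 51 P450 genes, 32.8% held TATAAA, 27.6% GGGCGG and 22.4% GCGTG, beside 12.4%, 32.7% and 28.2% of all 32851 mouse promoters of that length. Of the 16 genes that fell in treated tumors 14 had a promoter in the table, of which 4 held TATAAA, 5 GGGCGG and 5 GCGTG. Of the 7 that rose 6 had one, with 2, 3 and 2. A match describes the letters in the window and is not evidence of binding.

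Cyp26b1, Cyp27a1 and Cyp8b1, which act on the body's own retinoids and sterols, fell in both tumor groups. Cyp26b1, which breaks down retinoic acid, read 7.20, 8.88, 9.35, 9.17 and 8.74 in control lung, 6.22, 6.22, 6.33 and 6.24 in spontaneous tumors and 5.70 to 7.83 (median 6.44) in treated tumors. The spontaneous tumors were almost equal, and control 1 was low enough to fall inside the range of treated tumors. Cyp26b1 fell by 2.41 ± 0.42 (limma adjusted p = 0.000532) and fell by 2.12 ± 0.38 (adjusted p = 0.000489), while Cyp26a1, the other measured gene of the family, was not called (0.22 ± 0.16 and 0.33 ± 0.15). Cyp27a1, the mitochondrial sterol hydroxylase of bile acid synthesis, read 8.51, 8.92, 8.92, 8.54 and 8.96 in control lung, 7.43, 7.76, 7.43 and 7.15 in spontaneous tumors and 6.95 to 7.67 (median 7.32) in treated tumors. It fell by 1.33 ± 0.17 (adjusted p = 2.91e-05) and fell by 1.47 ± 0.15 (adjusted p = 2.91e-06) in the limma fit, with no overlap. Its second probe set was not called, at -0.22 and -0.19. Cyp8b1, the sterol hydroxylase of cholic acid synthesis, fell by 0.67 ± 0.13 and fell by 0.76 ± 0.12 (limma adjusted p = 0.00126 and 0.000159). Cyp7b1, an oxysterol hydroxylase, ran from 6.17 to 8.24 in control lung, 4.47 to 6.76 in spontaneous and 5.16 to 7.11 in treated tumors, and its differences of -1.37 ± 0.53 and -0.97 ± 0.48 did not pass (adjusted p = 0.0604 and 0.125).

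In family CYP4, whose members hydroxylate fatty acids and eicosanoids at the chain end, Cyp4f15 read 7.47, 6.48, 7.26, 8.0 and 6.60 in control lung. It read 4.82, 4.58, 4.56 and 4.99 in spontaneous tumors and 4.43 to 5.13 (median 4.73) in treated tumors, so that tumors of both groups were alike and well below control. Cyp4f15 fell by 2.42 ± 0.26 (limma adjusted p = 6.51e-06) and fell by 2.38 ± 0.23 (adjusted p = 1.89e-06). Cyp4f39, an enzyme of very long fatty acids in skin, read 6.90, 6.05, 6.66, 7.50 and 6.92 in control lung, 5.39, 6.43, 6.49 and 5.81 in spontaneous tumors and 4.97 to 5.90 (median 5.41) in treated tumors. Its fall of -1.38 ± 0.26 in treated tumors (adjusted p = 0.000604) had no overlap, and the fall of -0.77 ± 0.28 in spontaneous tumors (adjusted p = 0.0478) did. The latter call was lost in 10 of 15 limma fits that left out 1 array (-0.81 to -0.56, adjusted p 0.0522 to 0.157): without control 1, 3, 4 or 6, treated tumor 3, 4, 5 or 6, or spontaneous tumor 1 or 4. Cyp20a1, an orphan P450 without an agreed substrate, read 9.75, 9.77, 9.51, 9.61 and 9.54 in control lung, 8.28, 8.20, 8.68 and 8.63 in spontaneous tumors and 8.30 to 9.21 (median 8.72) in treated tumors. It fell by 1.19 ± 0.18 (limma adjusted p = 0.00014) and fell by 0.88 ± 0.16 (adjusted p = 0.000531), and in treated tumors 1 of its 3 probe sets was called. Cyp2g1, first known from olfactory mucosa, fell by 0.72 ± 0.14 and fell by 0.79 ± 0.13 (limma adjusted p = 0.00142 and 0.000228). Cyp2b19 fell in treated tumors only by the test (-0.79 ± 0.25, adjusted p = 0.0211; spontaneous tumors -0.72 ± 0.28, adjusted p = 0.06), and this call was lost without control 1 or control 4 (-0.62 to -0.57, adjusted p 0.06 to 0.0635) and with the Y-linked mean as a covariate (-0.79, adjusted p = 0.106). The fall in spontaneous tumors passed without control 2 or 6 (-0.88 in each, limma adjusted p = 0.0220 and 0.0230) and over all 18 arrays with array weights (-0.81, adjusted p = 0.0204). Both Cyp2g1 and Cyp2b19 had low signals. Group means in control lung, spontaneous and treated tumors were 4.27, 3.55 and 3.48 for Cyp2g1 and 3.35, 2.63 and 2.56 for Cyp2b19.

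The 3 genes of family CYP1 did not move together. All are classical targets of the aryl hydrocarbon receptor, the sensor of dioxins and polycyclic aromatic hydrocarbons. Cyp1a1 read 5.49, 5.10, 5.63, 5.50 and 4.89 in control lung, 4.15, 3.96, 3.83 and 4.15 in spontaneous tumors and 3.38 to 4.08 (median 3.84) in treated tumors, with no overlap. It fell by 1.30 ± 0.17 (limma adjusted p = 4.87e-05) and fell by 1.53 ± 0.16 (adjusted p = 2.82e-06), a difference between low signals. Cyp1b1, which oxidizes aromatic hydrocarbons and estrogens outside the liver, read 9.73, 8.65, 9.23, 9.75 and 8.97 in control lung. It read 11.57, 9.99, 9.77 and 9.96 in spontaneous tumors and 9.17 to 11.91 (median 10.69) in treated tumors, where treated tumor 4 lay among the controls. Cyp1b1 rose by 1.34 ± 0.44 in treated tumors (2.53-fold, limma adjusted p = 0.0237), with 2 of its 3 probe sets called, and the difference of 1.06 ± 0.48 in spontaneous tumors did not pass (adjusted p = 0.107). The call in treated tumors was lost without control 2 or control 6 (1.19 to 1.27, adjusted p 0.0512 to 0.0599). Cyp1a2, the liver isoform that lies beside Cyp1a1, read 4.51, 4.65, 4.41, 4.30 and 4.83 in control lung, 4.59, 4.97, 4.72 and 4.83 in spontaneous tumors and 4.68 to 5.08 (median 4.84) in treated tumors. It rose by 0.32 ± 0.12 in treated tumors (limma adjusted p = 0.0427), with overlapping groups, and was not called in spontaneous tumors (0.24 ± 0.13, adjusted p = 0.186).

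The promoters of Cyp1a1 and Cyp1b1 are shown because these receptor targets differed in direction. The 150 bases before each RefSeq start (GRCm38.p6) are given 5′ to 3′ on the gene's strand, with the receptor core (GCGTG, or CACGC on the opposite strand), the TATA box and the GC box in capitals.
Cyp1a1, chr9:57697463-57697612, plus strand: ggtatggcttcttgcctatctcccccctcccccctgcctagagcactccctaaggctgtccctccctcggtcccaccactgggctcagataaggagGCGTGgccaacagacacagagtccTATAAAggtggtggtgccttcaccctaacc
Cyp1b1, chr17:79715062-79715211, minus strand: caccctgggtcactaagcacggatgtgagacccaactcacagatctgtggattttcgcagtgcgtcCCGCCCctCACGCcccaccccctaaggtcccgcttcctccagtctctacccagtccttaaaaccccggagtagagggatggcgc
The core begins at -54 in Cyp1a1 and at -76, on the opposite strand, in Cyp1b1. Cyp1a1 has a TATA box at -30, and Cyp1b1 has a GC box at -84 and no TATAAA in the window. The receptor gene itself, Ahr, was lower in spontaneous tumors (-0.72 ± 0.18, limma adjusted p = 0.00608; 9.06 to 9.73 against 9.67 to 10.27 in control lung) and was not called in treated tumors (-0.39 ± 0.16, adjusted p = 0.0712). Ahrr, its repressor, rose in treated tumors by 0.74 ± 0.21 (limma adjusted p = 0.0101) and was not called in spontaneous tumors (0.32 ± 0.23, adjusted p = 0.301). The Ahrr signal was low, at 3.68 to 4.17 in control lung, 4.06 to 4.59 in spontaneous and 4.25 to 5.62 in treated tumors. Arnt (0.05 ± 0.10 and 0.14 ± 0.09) and Tiparp (0.32 ± 0.27 and 0.46 ± 0.25), also listed as regulators, were called in neither group. These regulator genes are named here because they bear on family CYP1, after their values were seen.

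Rises were fewer and mostly smaller than falls, with Cyp2c68 as the main exception. This gene of the CYP2C group read 5.60, 5.35, 5.41, 5.39 and 5.54 in control lung, 11.34, 7.99, 6.73 and 9.53 in spontaneous tumors and 5.64 to 9.59 (median 7.07) in treated tumors. All 10 tumors were above all controls, treated tumors 3 and 4 only slightly so, and the tumors differed among themselves by several log2 units. Cyp2c68 rose by 3.44 ± 0.85 in spontaneous tumors (10.9-fold, limma adjusted p = 0.00623; 2.36 ± 0.86 and adjusted p = 0.0572 with the actin difference as a covariate), and the difference of 1.91 ± 0.77 in treated tumors did not pass (adjusted p = 0.0618). Leaving out treated tumor 3 or 4 put the latter past the threshold (2.26 and 2.19, adjusted p = 0.0314 and 0.0417), as did leaving out spontaneous tumor 1 or 3, which does not change the difference itself (adjusted p = 0.0313 and 0.0406). Cyp3a13, of the CYP3A group that oxidizes many drugs and steroids, read 5.71, 5.84, 5.04, 6.15 and 5.87 in control lung, 6.23, 6.11, 6.51 and 5.61 in spontaneous tumors and 6.55 to 8.82 (median 7.15) in treated tumors. The treated tumors lay above all control and spontaneous tumor arrays, and treated tumor 5 was the highest. Cyp3a13 rose by 1.56 ± 0.33 in treated tumors (2.95-fold, limma adjusted p = 0.00173) and was not called in spontaneous tumors (0.39 ± 0.37, adjusted p = 0.445). Cyp4v3, a fatty acid hydroxylase, read 9.42, 10.31, 9.66, 9.76 and 10.53 in control lung, 11.75, 10.70, 11.29 and 10.33 in spontaneous tumors and 9.46 to 11.32 (median 10.53) in treated tumors. It rose by 1.08 ± 0.36 in spontaneous tumors (limma adjusted p = 0.0293; 0.52 ± 0.32 in treated tumors, adjusted p = 0.221). That call was lost without control 1, 3 or 4 or spontaneous tumor 1 or 3 (0.84 to 1.04, adjusted p 0.0581 to 0.102). Controls 2 and 6 were the highest controls for Cyp4v3, and they also had the highest alveolar macrophage list means of the controls (10.3 and 11.1, against 7.55 to 8.09 in the other 3), whose part in the result was not tested.

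The remaining rises were below 1 log2 unit. Cyp2c23, a CYP2C enzyme that epoxidizes arachidonic acid, read 3.79, 4.17, 3.87, 4.07 and 4.10 in control lung, 4.29, 4.44, 4.47 and 4.33 in spontaneous tumors and 4.29 to 5.05 (median 4.67) in treated tumors. It rose by 0.66 ± 0.15 in treated tumors (limma adjusted p = 0.00232) with no overlap, and the difference of 0.38 ± 0.16 in spontaneous tumors did not pass (adjusted p = 0.0836). It passed in a fit of the spontaneous and control arrays alone (adjusted p = 0.0253) and over 18 arrays with array weights (adjusted p = 0.0370), and the call in treated tumors was lost with the Y-linked mean as a covariate (0.48 ± 0.18, adjusted p = 0.0691). Cyp2c70, which makes muricholic acids in liver, read 3.52, 4.01, 4.28, 4.01 and 4.14 in control lung, 4.47, 4.69, 4.51 and 4.61 in spontaneous tumors and 4.29 to 6.49 (median 4.52) in treated tumors. Its rise of 0.86 ± 0.32 in treated tumors (adjusted p = 0.0426) included treated tumor 5 at 6.49, and the other treated tumors lay between 4.29 and 4.99; spontaneous tumors gave 0.58 ± 0.35 (adjusted p = 0.228). Without treated tumor 5 the difference was 0.53 in treated and 0.58 in spontaneous tumors and passed in both (limma adjusted p = 0.0174 and 0.0175). In spontaneous tumors it passed with a replicate block, which sets treated tumor 5 apart too (limma adjusted p = 0.0393), and in the 2-group fit (adjusted p = 0.0153). Cyp4f16 read 8.32, 9.05, 8.55, 8.73 and 9.30 in control lung, 8.62, 9.45, 9.36 and 9.02 in spontaneous tumors and 9.12 to 9.48 (median 9.27) in treated tumors. Cyp4f13 read 6.77, 6.48, 6.68, 6.54 and 6.49 in control lung, 6.43, 7.02, 6.88 and 6.82 in spontaneous tumors and 6.7 to 7.21 (median 7.06) in treated tumors. Both rose in treated tumors, by 0.49 ± 0.18 and 0.38 ± 0.13 (limma adjusted p = 0.0434 and 0.0262), with groups that overlapped, and were not called in spontaneous tumors (0.32 ± 0.20 and 0.20 ± 0.14). The second probe set of Cyp4f16 was called higher in both groups, by 0.83 ± 0.24 in spontaneous and 1.22 ± 0.22 in treated tumors (limma adjusted p = 0.0166 and 0.000474), and the mean of both probe sets passed in spontaneous tumors too (0.58 ± 0.19, adjusted p = 0.0317). For Cyp4f16 as for Cyp4v3, controls 2 and 6, the controls with the highest macrophage list means, were the highest controls. Cyp3a16 read 2.43, 2.40, 2.20, 2.42 and 2.37 in control lung and 2.61, 2.74, 2.94 and 2.47 in spontaneous tumors, where it rose by 0.33 ± 0.11 (limma adjusted p = 0.0408). In treated tumors it ran from 2.30 to 2.73 with a median of 2.48 (0.12 ± 0.10, adjusted p = 0.386). Signals this low are near the bottom of the array's scale.

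Most of these small rises lay near the threshold, and the loss of 1 array, whichever group it came from, was often enough to lose the call. In the limma fits that each left out 1 of 15 arrays, Cyp2c23 kept its call in all. Cyp2c70 lost it in 10 (0.74 to 0.93, adjusted p 0.0509 to 0.108): without any 1 of the control arrays, treated tumor 1 or 2, or spontaneous tumor 2, 3 or 4. Cyp1a2 lost it in 8 (0.26 to 0.32, adjusted p 0.0524 to 0.116): without control 1, 3 or 4, treated tumor 1, 5 or 6, or spontaneous tumor 3 or 4. Cyp4f16 lost it in 8 (0.37 to 0.50, adjusted p 0.0525 to 0.128): without control 1, 3 or 4, treated tumor 1, 2, 4 or 6, or spontaneous tumor 4. Cyp4f13 lost it in 6 (0.34 to 0.37, adjusted p 0.0514 to 0.0596): without control 2, 4 or 6, or treated tumor 3, 4 or 6. Cyp3a16 lost it in 9 (0.24 to 0.35, adjusted p 0.0504 to 0.139): without any 1 of the control arrays, treated tumor 2, or spontaneous tumor 1, 2 or 3.

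**Figure D3:**
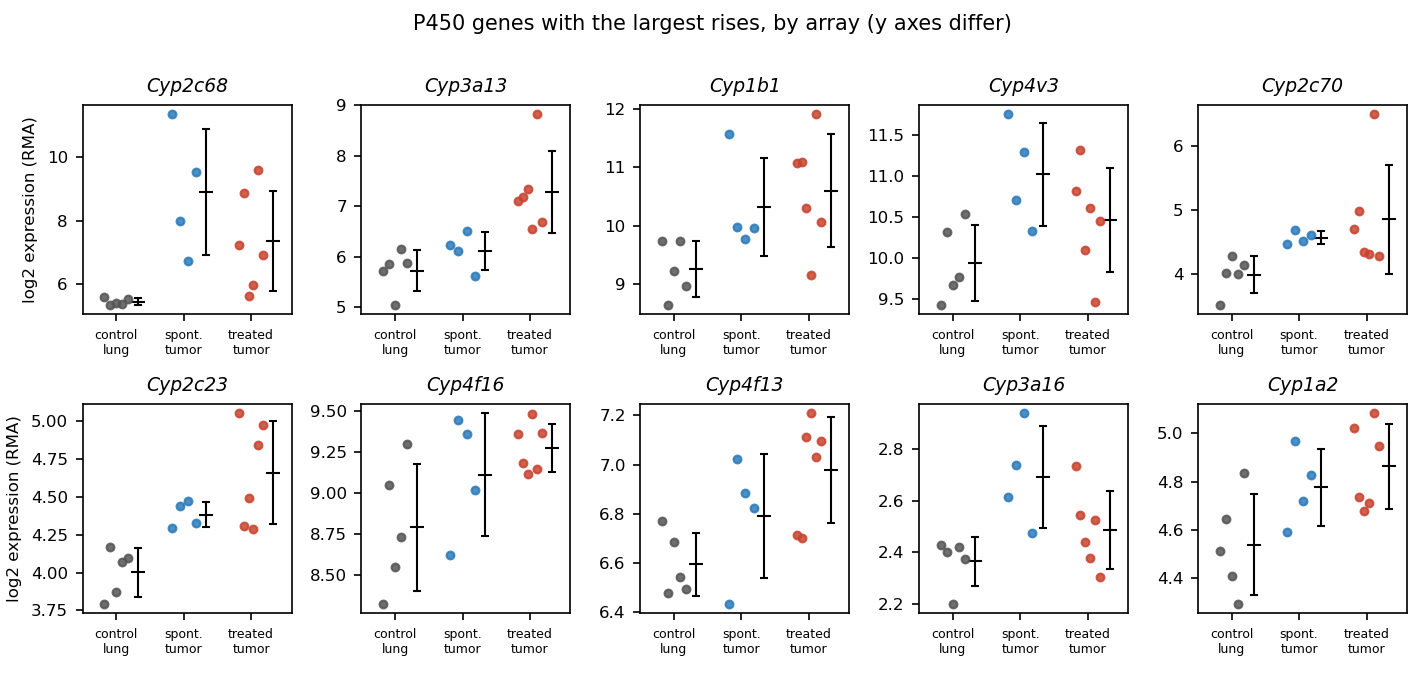
Log2 expression on each array of the 10 P450 genes called higher in either tumor group, with control lung in grey, spontaneous tumors in blue, treated tumors in red, and the group mean ± SD in black; y axes differ between panels. Cyp2c68 reaches 11.34 in spontaneous tumor 1 and 9.59 in treated tumor 5 from controls near 5.5, while the lower row spans less than 1.5 log2 units per panel.

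The 44 genes called in neither comparison had log2 differences from -1.37 to 0.37 in spontaneous tumors and from -0.97 to 0.46 in treated tumors. For 31 of them the mean signal over the 15 arrays was under 5, which for this type of array leaves little room for a fall to be seen. Cyp39a1, an oxysterol hydroxylase, read 9.32, 8.60, 8.55, 9.51 and 8.85 in control lung, 8.56, 9.25, 9.10 and 8.65 in spontaneous tumors and 8.71 to 9.56 (median 9.0) in treated tumors, with differences of -0.08 ± 0.23 and 0.11 ± 0.21. Cyp21a1, the adrenal steroid hydroxylase, read 7.86, 8.05, 8.17, 7.75 and 8.0 in control lung, 7.77, 8.32, 7.85 and 7.83 in spontaneous tumors and 7.58 to 8.70 (median 8.01) in treated tumors, with differences of -0.03 ± 0.19 and 0.07 ± 0.17. For both genes the 3 groups overlapped in full, and the limma adjusted p was 0.717 or higher. By family, CYP3 had 1 rise in each tumor group and no fall. CYP2 had 6 falls and 1 rise among 35 genes in spontaneous tumors and 8 falls and 2 rises in treated tumors. CYP4 had 3 falls and 1 rise among 11 genes in spontaneous tumors and 3 falls and 2 rises in treated tumors. The 16 genes of the other families had 4 falls (Cyp8b1, Cyp20a1, Cyp26b1 and Cyp27a1) and no rise in either group, and the 3 CYP11 genes and Cyp17a1 of steroid synthesis were not called, although 1 of 3 probe sets of Cyp11a1 was called higher in spontaneous tumors. Falls made up 17.1% and 22.9% of CYP2, 27.3% of CYP4 and 25% of the other families, beside 12.9% and 15% of all genes. Rises made up 2.86% and 5.71% of CYP2, 9.09% and 18.2% of CYP4 and 20% of CYP3, beside 20.1% and 23.8% of all genes.

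**Figure D4:**
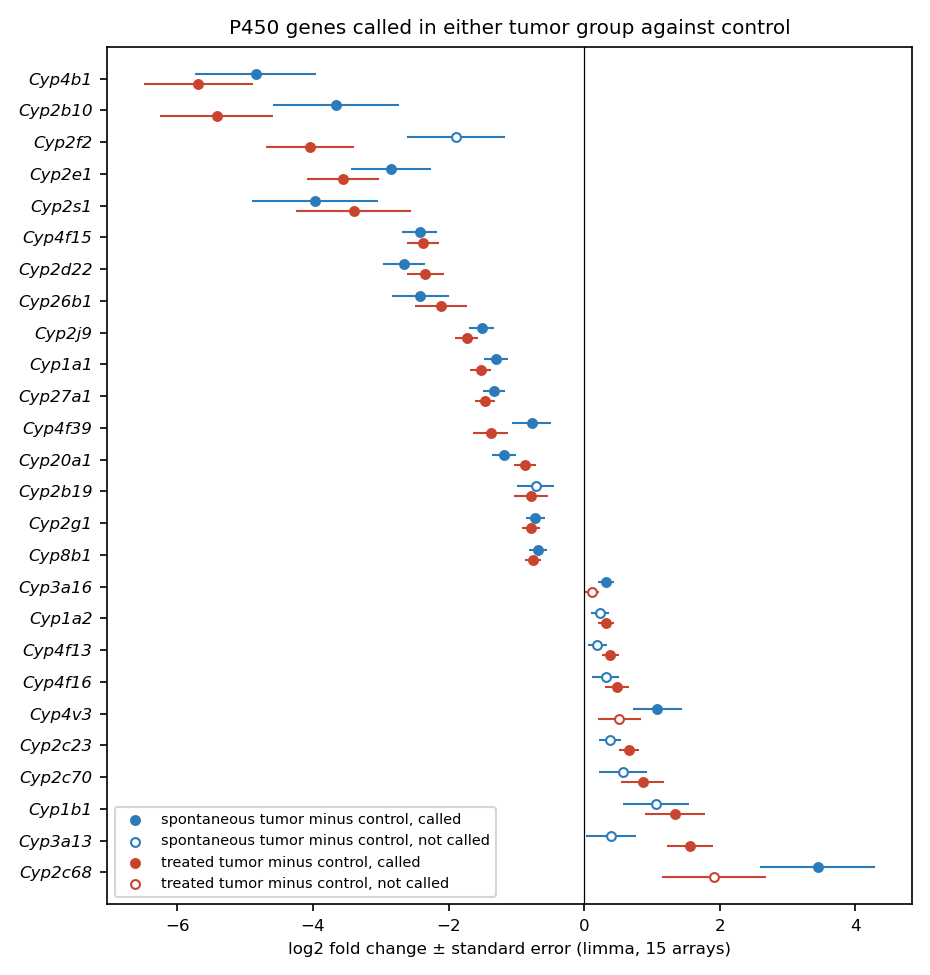
Log2 fold change with its standard error for the 26 P450 genes called in at least 1 tumor group against control, spontaneous tumors in blue and treated tumors in red. Filled points passed limma at adjusted p under 0.05 and open points did not; 14 genes have filled points on the left in both colours, and no gene is filled on the right in both.

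Set against each other, the tumor groups could not be separated by any P450 gene after adjustment. No member was called higher or lower in treated than in spontaneous tumors, where 0.0330% of all genes were higher and 0.0220% lower. At an unadjusted p under 0.05 there were 3 genes, Cyp3a13, Cyp2f2 and Cyp4f39. Cyp3a13 was 1.17 ± 0.36 higher in treated tumors (limma adjusted p = 0.325), and it was the only member whose 2 tumor groups did not overlap, beside 0.830% of all genes on the same side and 0.797% on the low side, where no member lay. For Cyp2f2 the difference was -2.16 ± 0.70 (limma adjusted p = 0.370), with treated tumor 2 at 11.16 just above the lowest spontaneous tumor at 11.15. Cyp4f39 differed by -0.60 ± 0.27 (limma adjusted p = 0.561). Cyp2b10 (-1.76 ± 0.89), Cyp2c68 (-1.53 ± 0.82) and Cyp4b1 (-0.85 ± 0.86) had larger standard errors because their tumors were spread widely, so differences of this size were not detectable with 4 and 6 arrays. A gene called in 1 tumor group and not in the other, such as Cyp2f2, Cyp2c68, Cyp1b1 or Cyp4v3, is therefore not shown to differ between them.

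Many P450 genes lie side by side in the genome. Positions are those of RefSeq on GRCm38.p6, with neighbours taken as members less than 2000000 bases apart. In spontaneous tumors no such stretch held calls in both directions, and in treated tumors those on chromosomes 9 and 17 did. Counts per stretch are small and were not tested. Over all genes 12.9% were lower and 20.1% higher in spontaneous tumors, and 15% and 23.8% in treated tumors. At chr7:25802469-27133660 lie 8 members, Cyp2s1, Cyp2b10, Cyp2b13, Cyp2b9, Cyp2b19, Cyp2g1, Cyp2a12 and Cyp2f2, of which 3 fell in spontaneous and 5 in treated tumors and none rose. Within that stretch Cyp2b13 (0.16 ± 0.13 and 0.18 ± 0.12) and Cyp2a12 (0.20 ± 0.17 and 0.10 ± 0.15) were not called. Cyp2b9 of the same stretch was not called either, with differences below 0 (-0.28 ± 0.16 and -0.37 ± 0.14, limma adjusted p = 0.197 and 0.0518). The 8 CYP2D genes at chr15:82370527-82794452 held 1 fall, Cyp2d22. Among the 6 members at chr17:32452697-34804426, Cyp4f39 and Cyp4f15 fell while Cyp4f16 and Cyp4f13 rose in treated tumors. The 11 members at chr19:37697738-40187286 held no fall and 1 rise in each comparison, Cyp2c68 in spontaneous and Cyp2c70 in treated tumors. At chr9:57676937-58027031 Cyp1a1 fell and its neighbour Cyp1a2 rose in treated tumors. The CYP2C, CYP2D and CYP3A genes are close copies of each other, and probes of 1 can read RNA of another.

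Genes that serve P450 enzymes moved in both directions. Of 12 listed electron donors and P450-binding proteins 9 were measured, and 2 fell in each tumor group, Pgrmc1 and Cyb5a, while Cyb5r1 rose in spontaneous tumors (the last 2, with changes under 1 log2 unit, were named after their values were seen). Pgrmc1, a heme-binding membrane protein that associates with P450 enzymes, ran from 10.95 to 11.85 in control lung, 8.02 to 8.56 in spontaneous and 8.02 to 10.60 in treated tumors. It fell by 3.06 ± 0.41 (limma adjusted p = 4.73e-05) and fell by 1.89 ± 0.37 (adjusted p = 0.00082). In the heme list 11 of 12 genes were measured, with 3 rises and 1 fall in spontaneous tumors and 5 rises and 1 fall in treated tumors. Alas1, the rate-limiting enzyme of heme synthesis, was the fall: it ran from 11.19 to 12.42 in control lung, 9.69 to 10.79 in spontaneous and 9.75 to 10.16 in treated tumors (-1.31 ± 0.26 and -1.73 ± 0.23, limma adjusted p = 0.00124 and 3.91e-05). Cpox, a later step of the same synthesis, rose by 1.33 ± 0.25 and 1.26 ± 0.22, and Hmox1, which degrades heme, by 1.32 ± 0.30 and 1.43 ± 0.27. The rises make up 27.3% and 45.5% of the heme list, beside 20.1% and 23.8% of all genes higher, and the 2 falls 22.2% of the first list, beside 12.9% and 15% of all genes lower.

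Of 22 listed regulators of P450 genes 21 were measured, with 5 rises and 3 falls in spontaneous and 9 rises and 3 falls in treated tumors. In spontaneous tumors that is 23.8% and 14.3% of the list, near the 20.1% and 12.9% of all genes, and in treated tumors 42.9% and 14.3%, beside 23.8% and 15%. Cebpa, a transcription factor of liver and alveolar type 2 cells, ran from 10.15 to 10.76 in control lung, 12.30 to 12.78 in spontaneous and 12.08 to 12.55 in treated tumors, a rise of 2.01 ± 0.15 and 1.77 ± 0.14 (limma adjusted p = 3.11e-07 and 1.89e-07). Ppara, the fatty acid receptor that drives CYP4A genes in liver, rose by 1.11 ± 0.20 and 0.93 ± 0.18 (adjusted p = 0.00071 and 0.000968), while Cyp4a14 and Cyp4a31 were not called and stayed under a mean signal of 5. The receptors of foreign compounds Nr1i2 and Nr1i3 had low signals, and both are named after their values were seen. Nr1i3 ran from 3.99 to 5.14 in control lung, 5.18 to 5.75 in spontaneous and 4.97 to 5.59 in treated tumors and rose by 0.64 ± 0.21 and 0.57 ± 0.19 (limma adjusted p = 0.0284 and 0.0262), while Nr1i2 was not called (-0.12 ± 0.16 and -0.15 ± 0.14). Among other lung monooxygenases and related enzymes outside the symbol rule, 8 of 9 were measured, 5 fell in each tumor group and none rose, so that 62.5% fell beside 12.9% and 15% of all genes. Fmo1, a flavin monooxygenase, ran from 11.30 to 12.29 in control lung, 5.07 to 7.0 in spontaneous and 5.40 to 9.23 in treated tumors, with differences of -5.33 ± 0.64 and -5.23 ± 0.58 (limma adjusted p = 1.97e-05 and 6.06e-06). Ptgis, the P450-type prostacyclin synthase, fell by 3.21 ± 0.29 and fell by 3.53 ± 0.26, and the falls of Fmo2 (-1.49 and -0.94), Fmo5 (-1.39 and -1.16) and Ephx1 (-0.87 and -1.47) were smaller. Cyp51, the sterol demethylase, and Tbxas1, the thromboxane synthase, both P450 proteins too, were not called (Cyp51 -0.77 ± 0.36 and -0.22 ± 0.33; Tbxas1 0.21 ± 0.26 and 0.28 ± 0.24).

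Markers of airway, vessel and connective tissue cells moved with the same groups, while the alveolar macrophage list did not divide control from tumor arrays. The mean log2 level of 8 club cell markers was 11.9 to 12.2 in control lung. It was 8.11 to 10.5 in spontaneous and 7.65 to 10.1 in treated tumors. Of the 8 markers 5 were lower in spontaneous and 7 in treated tumors, or 62.5% and 87.5%. Over all genes 12.9% and 15% were lower, which is the background for the falls in the lists below too. Scgb3a1 went the other way and was not called (1.97 ± 0.83 and 1.61 ± 0.75). Scgb1a1, the club cell secretory protein, read 14.36 to 14.49 in control lung and 8.17 to 13.34 in treated tumors. It read 8.78 in spontaneous tumor 1 and 13.18 to 13.62 in the other spontaneous tumors. Its fall was called in treated tumors and not in spontaneous tumors (-2.20 ± 1.03, limma adjusted p = 0.115). All 7 measured ciliated cell markers were lower in both tumor groups (list mean 9.67 to 11.2 in control lung, 5.76 to 7.13 and 5.75 to 6.72 in tumors). The endothelial list stood at 11.0 to 12.0 in control lung and at 7.86 to 8.79 and 7.60 to 8.87 in tumors, and the fibroblast list at 11.4 to 11.8, 7.25 to 8.34 and 6.61 to 8.72. Of 7 fibroblast markers 6 were lower in each group, while Col1a1 rose in treated tumors (0.81 ± 0.30, limma adjusted p = 0.0456). In the alveolar type 2 list, means were 12.3 to 13.0 in control lung, 13.4 to 13.7 in spontaneous and 13.3 to 13.5 in treated tumors. Of 7 type 2 markers 5 were higher in each group (71.4%), beside 20.1% and 23.8% of all genes. Napsa had the largest difference (3.03 and 2.31), and Sftpc and Lyz2 were not called. The alveolar type 1 list went from 11.7 to 12.3 down to 10.2 to 11.4 and 9.61 to 11.1. Of 7 type 1 markers 4 were lower in spontaneous and 3 in treated tumors. Cldn18 (0.46 and 0.29) and Aqp5 (0.47 and 0.13) had differences above 0 and were not called. The smooth muscle list went from 9.11 to 11.0 in control lung down to 6.73 to 7.54 and 6.73 to 7.71. The alveolar macrophage list, of which 6 of 7 genes were measured, split the controls: it stood at 7.55 to 8.09 in controls 1, 3 and 4, at 10.3 and 11.1 in controls 2 and 6, and at 10.1 to 11.3 in spontaneous and 9.83 to 11.4 in treated tumors. Its members Siglecf and Chil3 were called higher in both tumor groups and the other 4 in neither. That is 33.3% of the list, beside 20.1% and 23.8% of all genes higher. The adipocyte list, with 2 of 4 genes measured, split the controls the same way, at 5.26 to 6.03 against 7.11 and 8.03. It stood at 7.45 to 7.97 and 7.04 to 8.13 in tumors. That split lay in Fabp4, which read 7.45 to 12.56 over the controls. The other gene, Adipoq, read 3.07 to 3.52 there, a low signal, and was called in neither tumor group. The list mean is thus not a measure of adipocytes here. These samples are bulk tissue, in which fewer cells of a type and less RNA per cell cannot be told apart, and the part of cell make-up in the P450 differences was not tested.

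**Figure D5:**
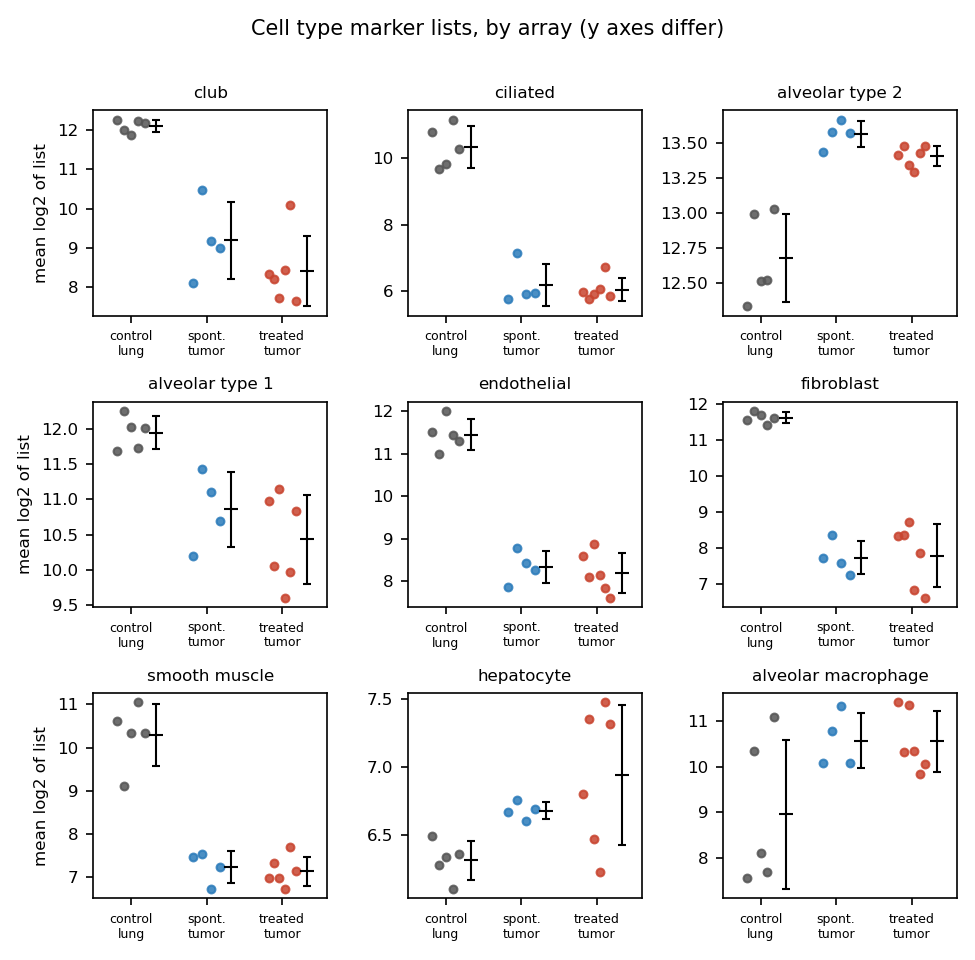
Mean log2 level of 9 cell type marker lists on each array, control lung in grey, spontaneous tumors in blue and treated tumors in red, with the group mean ± SD in black; y axes differ. Club, ciliated, endothelial, fibroblast and smooth muscle lists are lower in all tumors than in all control lungs, the alveolar type 2 list is higher in all tumors, and treated tumor 5 is the highest treated point for the club and hepatocyte lists.

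Tumors of 1 group differed from each other in their P450 genes. Over the 12 genes with the largest falls, spontaneous tumor 2 was the highest of its group for 7 genes and spontaneous tumor 1 the lowest for 8. Spontaneous tumor 2 also had the highest club (10.5), ciliated (7.13), endothelial (8.79) and fibroblast (8.34) list means of its group, and spontaneous tumor 1 the lowest club mean (8.11). In the treated group tumor 3 was highest for 6 of the 12 genes and tumors 4 and 6 lowest for 5 and 4. Treated tumor 3 had a club mean of 7.71, near the bottom of its group, and the highest endothelial (8.87), fibroblast (8.72) and alveolar type 1 (11.1) means. For Cyp4b1 and Cyp2b10 treated tumor 3 was the highest of its group at 9.18 and 9.05, and for Cyp2f2 it was among the low ones at 7.74. Over the 10 genes that rose, treated tumor 5 was highest of its group for 5, among them Cyp2c68, Cyp3a13, Cyp2c70 and Cyp1b1. Treated tumor 5 also read 8.68 for Ttr and 9.17 for Hnf4a, a regulator of liver and gut P450 genes. Hnf4a read 6.32 to 7.99 in the other treated tumors and 6.31 to 6.81 in control lung. It was called in neither tumor group (-0.02 ± 0.41 in spontaneous and 0.91 ± 0.37 in treated tumors, limma adjusted p = 0.973 and 0.0648). Alb, the albumin gene, was highest in treated tumor 2 at 11.40. The hepatocyte list mean was 7.47 in treated tumor 5 and 6.23 to 7.35 in the other treated tumors, beside 6.11 to 6.49 in control lung. Of the 7 measured genes of that list only Alb was called, in treated tumors, and none in spontaneous tumors. In treated tumors Apoa1 and Ttr differed by 1.12 and 0.69, and Apoa2, Fgb, Ahsg and Tat by -0.06, 0.07, 0.08 and -0.02. The part of this list and of Hnf4a in the rises was not tested. The treated group's Cyp3a13 and Cyp2c23 calls held in every fit that left out 1 array, treated tumor 5 included.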

How the data were processed

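The deposited table holds log2 expression per probe set for 18 arrays, made by the authors with RMA per the submitters' processing notes. Its version is not given in the sources used here, nor are a genome build and probe annotation. Labelled RNA was made with a 3′ kit, per the labels' protocols. That the scale is log2 is taken from RMA; array medians were 6.675 to 6.806 on the 15 arrays used and 6.937 to 7.004 on the 3 left out, and values were not centred per gene. Of 45101 probe sets 34945 carried 1 gene symbol in the platform annotation, 932 several and 9160 none, and 64 were array controls; probe sets with several symbols, 3 of them for P450 genes, were not used for the members. All 70 P450 symbols matched RefSeq genes of GRCm38.p6, and 18 genes had several probe sets. The probe sets of 4 members (Cyp2c23, Cyp2c65, Cyp4v3 and Cyp7b1) carry the suffix for probes shared with other transcripts.

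Differences were tested with limma 3.58.1 in R 4.3.3 (lmFit and eBayes, 1 mean per group, 15 arrays in 1 fit, Benjamini-Hochberg over 18193 genes), after a test on simulated data. The series' design text names another program, ORIOGEN, which was not used here. Replicate numbers are not stated to mark animals or batches, so no block entered. Values per array are given for the 12 members per direction with the largest called change and the 10 with the highest mean. Genes of the partner, heme, regulator and monooxygenase lists are named where called with an absolute log2 change of at least 1. Exceptions are stated, and Cyp51, Tbxas1 and Hnf4a are also named although they were not called. Members and lists were chosen with earlier results of these data known. Alternatives covered the arrays used, the replicate block, normalization, low signals, the probe set per gene, the variance model, the groups in the fit, a minimum fold and covariates.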

Additional observations from a re-analysis of the deposited data

Results flagged for a closer look

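In 84 groups of 4 to 6 arrays, over 28 genes (the 26 called against control, Cyp39a1 and Cyp21a1), 9 held 1 array far from the others (Dixon's gap over range above its 95% value). Chance alone gives about 1 in 20 groups. Cyp1b1 read 11.57 in spontaneous tumor 1 and 9.77 to 9.99 in the other spontaneous tumors. Cyp21a1 read 8.319 in spontaneous tumor 2 and 7.77 to 7.85 in the others. Cyp2j9 read 5.597 in spontaneous tumor 4 and 6.24 to 6.34 in the others. Cyp26b1 read 6.333 in spontaneous tumor 3, against 6.22 to 6.24, a gap of little size in a very tight group. In control lung, Cyp26b1 read 7.205 in control 1 and 8.74 to 9.35 in the others, Cyp2e1 read 9.372 in control 2 and 6.95 to 7.38 in the others, and Cyp3a16 read 2.201 in control 3 and 2.37 to 2.43 in the others. In treated tumors, tumor 5 stood apart for Cyp2c70 (6.492, others 4.29 to 4.99) and Cyp3a13 (8.819, others 6.55 to 7.35). No cause was tested for any of these arrays.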

How the results depend on the processing

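Counts are P450 genes called higher and lower; the main counts were 3 and 14 in spontaneous tumors, 7 and 16 in treated tumors, and 0 and 0 between the tumor groups, where every setting also gave 0. Over all 18 arrays they were 1 and 6 in spontaneous and 1 and 10 in treated tumors, and with array weights over 18 arrays 3 and 17, and 9 and 17. Limited to genes at or above the median mean, which tests fewer members, they were 1 and 6, and 2 and 6. Higher calls in spontaneous tumors became 5 when probe sets of a gene were averaged, 1 with the Y-linked mean and 0 with the actin difference as a covariate (at unadjusted p under 0.05 the main fit had 23 genes in either direction). Higher calls in treated tumors became 3 with array medians centred, 1 with the Y-linked mean as a covariate and 2 with a minimum log2 change of 1. The Y-linked covariate lost the calls of Cyp2b10, Cyp3a16, Cyp4f39 and Cyp4v3 in spontaneous and of Cyp1a2, Cyp1b1, Cyp2b19, Cyp2c23, Cyp2c70, Cyp2s1, Cyp4f13 and Cyp4f16 in treated tumors, and the actin covariate those of Cyp2b10, Cyp2c68, Cyp3a16, Cyp4f39 and Cyp4v3 in spontaneous tumors. Leaving out 1 array gave 1 to 4 and 13 to 16 in spontaneous tumors, 3 to 8 and 15 to 18 in treated tumors, and 0 to 0 between tumors. Of 40 called gene values, 31 kept their call in every fit without 1 array and 27 in every alternative other than all 18 arrays, where 22 lost it. The cause was not tested.

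Differences that changed sign were mostly near 0. Over 18 arrays Cyp4f39 was 0.076, Cyp1b1 -0.13 and Cyp21a1 0.28 in spontaneous tumors, and Cyp21a1 -0.073 and Cyp3a16 -0.58 in treated tumors. Cyp21a1 in spontaneous tumors was 0.12 when probe sets were averaged, and ran from -0.152 to 0.033 without 1 array, above 0 without control 3 or spontaneous tumor 1, 3 or 4. In treated tumors it was -0.0019 with quantile normalization and ran from -0.058 to 0.165 without 1 array, below 0 without treated tumor 5. Cyp39a1 in spontaneous tumors was 0.091 with the actin covariate and ran from -0.198 to 0.058 without 1 array, above 0 without control 1 or 4 or spontaneous tumor 1 or 4.

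Replicate numbers are shared between groups and did not pair the arrays: deviations of 13 same-numbered pairs correlated from -0.149 to 0.298 (median -0.025, 2 above 0.1), those of the other 61 pairs with a median of 0.0069. With the number as a replicate block the counts were 3 and 14, 5 and 16, and 0 and 0. Treated tumor 5 is the only kept array with its number, so the block sets it apart, much as leaving it out does. The replicate block lost 4 calls, Cyp1a2, Cyp4f13 in treated and Cyp3a16, Cyp4f39 in spontaneous tumors. Its gains included Cyp2c70 in spontaneous tumors (0.56, limma adjusted p = 0.0393). The block put Cyp21a1 in treated tumors at -0.058, the same value as without treated tumor 5.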

Other observations

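The 3 P450 probe sets that match several genes were outside the symbol rule and are given as values only. The probe set shared by Cyp2a5 and Cyp2a4, close copies whose enzymes oxidize nicotine, coumarin and steroids, read 9.78 to 11.4 in control lung (10.5 ± 0.79, SD, n = 5), 4.68 to 6.83 in spontaneous tumors (5.47 ± 0.94, n = 4) and 4.87 to 6.28 in treated tumors (5.34 ± 0.49, n = 6), so that all tumors lay below all controls. The one shared by Cyp4f37 and Cyp4f16 read 6.27 to 7.45 in control lung, 7.37 to 8.23 in spontaneous and 7.95 to 8.85 in treated tumors. The one shared by Cyp4a31 and Cyp4a10 read 3.63 to 5.51 in control lung, 3.35 to 3.47 in spontaneous and 2.78 to 3.78 in treated tumors. These differences were not tested.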
